A study of Mus musculus with 12 samples.

Results

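The genes described here encode the alpha2delta and beta subunits of voltage-gated calcium channels in mouse dorsal root ganglia (DRG). They were chosen by symbol, and all 8 of them, Cacna2d1 to Cacna2d4 and Cacnb1 to Cacnb4, were found once each among the 24490 rows of the deposited table of expression values. The study sequenced polyA-selected RNA from 12 samples of DRG from adult male C57Bl/6 mice, in 3 groups of 4 samples, to define the transcripts of nociceptors, the sensory neurons that respond to painful stimuli. In the intact group each sample was the snap-frozen ganglia of 1 mouse. In the dissociated group the ganglia of 2 mice were pooled, treated with dispase, collagenase and DNAse, triturated and filtered. In the group sorted by MACS, magnetic-activated cell sorting, the ganglia of 8 mice were pooled and taken apart in the same way, then incubated with an antibody cocktail against non-neuronal cells and passed over a magnetic column that held back the labelled cells. All 3 groups came from unmodified mice with no treatment, and ganglia of all spinal levels were used. Expression is given in FPKM, fragments scaled by transcript length and by the total mapped in the sample, so that levels can be compared between genes per unit of transcript length.

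A voltage-gated calcium channel is built around an alpha1 subunit, which forms the pore and senses the voltage. The beta subunits are intracellular proteins that bind the pore subunit, aid its passage to the cell surface and set its gating. The alpha2delta subunits are largely extracellular and are anchored to the membrane. They raise the number of channels at the surface and at the synapse, and alpha2delta-1 and alpha2delta-2 are the binding sites of the analgesic drugs gabapentin and pregabalin.

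The groups were first checked against markers of the cells that ganglia contain. Summed over 8 general neuronal genes, expression was 2828 to 3122 FPKM in intact, 3548 to 3889 in dissociated and 3145 to 4050 in sorted samples. In dissociated against sorted samples, 10 nociceptor genes such as Scn10a summed to 2589 to 2676 against 2947 to 4064 FPKM, and 9 genes of large-diameter neurons such as Nefh to 854 to 1054 against 90.4 to 162. The 6 satellite glia genes summed to 2103 to 2654 against 89.1 to 189 FPKM, the 7 Schwann cell genes to 2024 to 3264 against 517 to 1206 and the 6 fibroblast genes to 168 to 337 against 7.62 to 32.4. Red blood cell genes were at 1684, 2535, 12543 and 15378 FPKM in sorted replicates 1 to 4 and at 112 to 400 FPKM in dissociated samples. Intact replicate 1 stood apart. Its median absolute log2 difference from the other intact samples, over 3267 genes, was 0.293 to 0.336, against 0.0658 to 0.0839 among those 3 (dissociated replicates 1 and 2 differed least of all pairs, by 0.0370), and its 12 skeletal muscle genes summed to 3475 FPKM, against 19.2 to 81.8 in the other intact samples. From the spacing of low values, with an assumed fragment length of 150 bases, depth was estimated at 13600000 to 19400000 fragments per sample.

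Cacnb3 was the most abundant of the 8 genes in every group, and Cacna2d1 came next. In intact ganglia the order by mean FPKM was Cacnb3, Cacna2d1, Cacnb4, Cacnb1, Cacna2d3, Cacna2d2, Cacnb2 and Cacna2d4. The ranges of Cacnb4 and Cacnb1 overlapped there, as did those of Cacnb1 and Cacna2d3. In dissociated samples Cacna2d3 stood above Cacnb1 in this order, with overlapping ranges. In sorted samples Cacna2d2, at 11.0 ± 0.775 FPKM (SD, n = 4), and Cacna2d3, at 11.0 ± 2.62, had nearly the same mean. The ranges of Cacna2d2 and Cacna2d3 overlapped in that group, and so did those of Cacnb4 and Cacnb1.

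**Figure D1:**
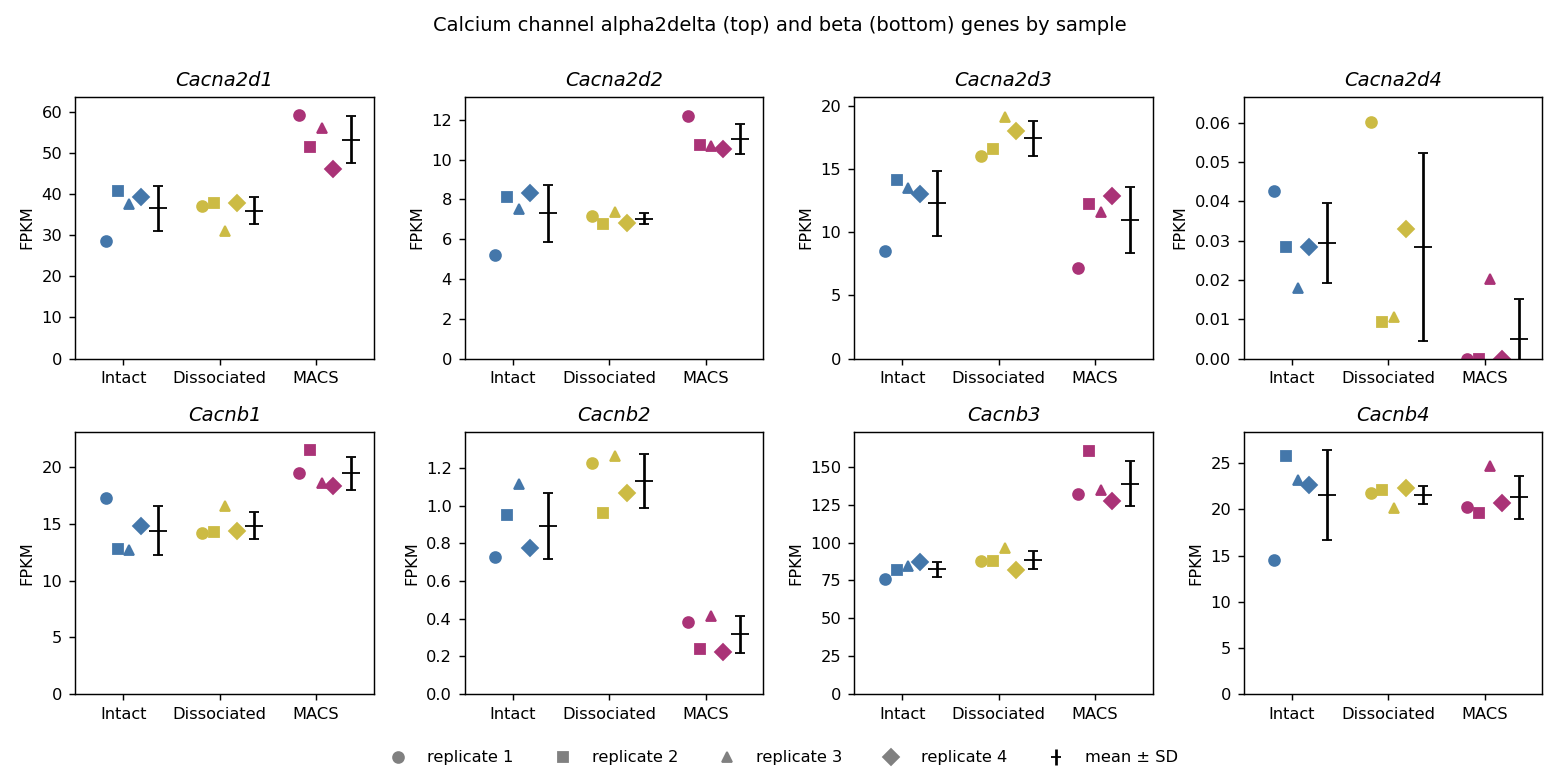
Expression of the 4 alpha2delta genes (top) and the 4 beta genes (bottom) in FPKM on the vertical axis, with 1 point per sample, the symbol giving the replicate number, and the mean ± SD of each group of 4 beside the points (bars are cut at 0, and the vertical scale differs between genes). Cacna2d1, Cacna2d2, Cacnb1 and Cacnb3 had every sorted sample above every dissociated sample, Cacna2d3 and Cacnb2 every sorted sample below, and Cacna2d4 stayed at or below 0.0602 FPKM.

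Sequences upstream of the start sites are shown for the 4 genes that met the study's criteria in sorted against dissociated samples, 3 higher and 1 lower. They are the 250 bases before the start, 5′ to 3′ on the gene's strand, from RefSeq on GRCm38.p6, the assembly of mm10, with matches to the GC box, GGGCGG or CCGCCC on the other strand, in capitals. The windows lie at chr5:15934441-15934690 on the plus strand for Cacna2d1, chr9:107399630-107399879 on the plus strand for Cacna2d2, chr14:29721865-29722114 on the minus strand for Cacna2d3 and chr15:98632078-98632327 on the plus strand for Cacnb3.
Cacna2d1: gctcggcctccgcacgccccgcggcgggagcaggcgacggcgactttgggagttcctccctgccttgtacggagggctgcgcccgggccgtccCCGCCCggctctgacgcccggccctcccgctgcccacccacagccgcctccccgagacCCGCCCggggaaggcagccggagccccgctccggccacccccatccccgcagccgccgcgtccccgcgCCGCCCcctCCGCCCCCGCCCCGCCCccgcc
Cacna2d2: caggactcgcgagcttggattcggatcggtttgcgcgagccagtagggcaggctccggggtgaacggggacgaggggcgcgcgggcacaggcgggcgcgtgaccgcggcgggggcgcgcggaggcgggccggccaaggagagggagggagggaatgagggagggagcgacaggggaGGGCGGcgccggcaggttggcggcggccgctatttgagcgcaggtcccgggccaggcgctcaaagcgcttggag
Cacna2d3: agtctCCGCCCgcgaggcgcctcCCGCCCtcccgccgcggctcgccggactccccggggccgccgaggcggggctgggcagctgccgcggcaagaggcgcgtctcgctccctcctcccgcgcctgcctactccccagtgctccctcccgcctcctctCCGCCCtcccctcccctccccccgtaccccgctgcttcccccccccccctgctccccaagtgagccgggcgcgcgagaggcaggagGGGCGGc
Cacnb3: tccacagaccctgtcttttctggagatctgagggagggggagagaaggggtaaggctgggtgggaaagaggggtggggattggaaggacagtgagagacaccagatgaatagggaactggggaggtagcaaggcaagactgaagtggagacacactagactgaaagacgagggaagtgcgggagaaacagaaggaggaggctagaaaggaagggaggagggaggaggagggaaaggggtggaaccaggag

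The windows of the 3 alpha2delta genes were rich in G and C, and that of Cacnb3 was not. Cacna2d1 held 6 GC boxes, counting overlapping ones, with 82.4% G and C and 36 CpG dinucleotides. Cacna2d2 held 1 GC box, with 74.4% G and C and 34 CpG, and Cacna2d3 held 4, with 80% and 30 CpG. The window of Cacnb3 held 0 GC boxes and 2 CpG at 56% G and C, while the window of its other annotated start held 3 GC boxes and 23 CpG at 70.4%. Over 32851 such windows of mouse genes the median was 52.4% G and C and 6 CpG, and 32.7% of windows held a GC box on either strand. Windows were found for 7 of the 8 genes (none for Cacna2d4), 6 of them at the start given in the deposited table. Of those 6 windows 5 held a GC box, 1 held CCAAT or ATTGG on the other strand (33.8% of all windows) and 0 held TATAAA or its reverse complement TTTATA (12.4%). These matches describe the letters alone, and the gene that was lower in sorted samples had GC boxes as did both alpha2delta genes that were higher.

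Cacna2d1 encodes alpha2delta-1, the isoform known to rise in sensory neurons after nerve injury. The gene lies on the plus strand of chr5:15934691-16374511 of mm10, with 1 start site in the table. Its expression was 28.6, 40.8, 37.7 and 39.3 FPKM in intact replicates 1 to 4, 37.1, 37.8, 31.0 and 37.8 in dissociated and 59.2, 51.6, 56.2 and 46.1 in sorted replicates 1 to 4. All 4 sorted samples lay above every other sample, and the intact and dissociated samples overlapped. On the log2(FPKM + 0.1) scale the difference between sorted and dissociated samples was 0.56 (standard error 0.097, 95% interval 0.35 to 0.78, limma, Benjamini-Hochberg adjusted p = 0.0011), a 1.48-fold higher level. In this and every other bulk comparison here, a larger share of cells that express a gene and more RNA per cell cannot be told apart.

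Cacna2d2 encodes alpha2delta-2, the isoform lost in the ataxic ducky mouse. Its gene is on the plus strand of chr9:107399880-107529343. Expression in replicates 1 to 4 was 5.22, 8.14, 7.52 and 8.30 FPKM in intact, 7.15, 6.78, 7.36 and 6.81 in dissociated, and 12.2, 10.7, 10.7 and 10.5 in sorted samples. The sorted samples were again above every other sample, while intact and dissociated samples overlapped. The log2-fold change between sorted and dissociated samples was 0.64 (standard error 0.078, 95% interval 0.47 to 0.82, limma, Benjamini-Hochberg adjusted p = 1.2e-04). An antisense transcript, Gm17141, shares 82 exonic bases with Cacna2d2 on the opposite strand. The library kit kept strand, but whether the estimates used it is not given in the sources used here.

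Cacna2d3 encodes alpha2delta-3, which has been linked to the sensing of noxious heat in flies and mice. On the minus strand, the gene spans chr14:28904943-29721864 of mm10. Its values were 8.50, 14.2, 13.6 and 13.1 FPKM in intact replicates 1 to 4, 16.1, 16.6, 19.2 and 18.0 in dissociated and 7.14, 12.3, 11.6 and 12.9 in sorted replicates 1 to 4. All 4 dissociated samples lay above all intact and all sorted samples, and these other two groups overlapped. Against dissociated samples the sorted samples were lower, with a log2-fold change of -0.70 (standard error 0.17, 95% interval -1.08 to -0.31, limma, Benjamini-Hochberg adjusted p = 0.0081). Sorted replicate 1 was the lowest of its group, and without it the difference was -0.50 and still past the threshold. It was the alpha2delta gene whose change had the opposite sign to the other two tested.

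Cacna2d4 encodes alpha2delta-4, known from photoreceptors. It lies on the plus strand of chr6:119236526-119352407 and was near the limit of detection in all samples. It was at 0.0427, 0.0284, 0.0180 and 0.0284 FPKM in intact replicates 1 to 4, at 0.0602, 0.00940, 0.0105 and 0.0331 in dissociated replicates, and at 0.0202 in sorted replicate 3. The other 3 sorted samples list it at 0. With the estimated depths and a transcript of 5803 bases assumed, these values stand for about 2 to 4 fragments in intact samples, 1 to 6 in dissociated samples and 2 in sorted replicate 3. The gene was below the mean of 1 FPKM required for a test, and a difference between groups was not detectable at this depth (exact two-sided permutation p = 0.0857 for sorted against dissociated samples, 4 against 4, where 0.0286 is the smallest p possible).

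Cacnb3 encodes beta-3, a beta subunit that pairs with N-type and L-type pores in neurons. The gene is found at chr15:98632328-98644536 on the plus strand, with 2 start sites in the table. Expression was 75.9, 82.1, 84.5 and 87.2 FPKM in intact, 88.1, 88.0, 96.7 and 82.1 in dissociated and 132, 161, 135 and 128 in sorted replicates 1 to 4. All sorted samples exceeded the highest of the remaining 8 samples, which overlapped between groups. The log2-fold change between sorted and dissociated samples was 0.64 (standard error 0.087, 95% interval 0.45 to 0.84, limma, Benjamini-Hochberg adjusted p = 2.4e-04).

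Cacnb1 encodes beta-1, which is found in neurons and is also the beta subunit of the skeletal muscle channel. Its position is chr11:98001508-98022627 on the minus strand. Its values were 17.3, 12.8, 12.7 and 14.8 FPKM in intact, 14.2, 14.3, 16.6 and 14.4 in dissociated and 19.4, 21.5, 18.6 and 18.3 in sorted replicates 1 to 4. All sorted samples lay above the other samples. The log2-fold change to dissociated samples was 0.39 (standard error 0.082, 95% interval 0.21 to 0.57, limma, Benjamini-Hochberg adjusted p = 0.0034). The gene rose by this test, but the size of its change was under the log2 ratio of 0.5 that the study's criteria require.

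Cacnb4 encodes beta-4, the subunit mutated in the epileptic lethargic mouse. It lies on the minus strand of chr2:52428320-52676609, with 4 start sites in the table. Replicates 1 to 4 had 14.5, 25.8, 23.2 and 22.6 FPKM in intact, 21.8, 22.1, 20.2 and 22.3 in dissociated and 20.3, 19.6, 24.7 and 20.6 in sorted samples. The 3 groups overlapped, and their means were 21.6, 21.6 and 21.3 FPKM. The log2-fold change between sorted and dissociated samples was -0.02 with a 95% interval from -0.21 to 0.17 (limma, Benjamini-Hochberg adjusted p = 0.838), an interval that holds only changes smaller than that of Cacna2d1, Cacna2d2 or Cacnb3. Its exons share 1170 bases with A430018G15Rik on the opposite strand.

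Cacnb2 encodes beta-2, the main beta subunit of the heart. It lies on the plus strand of chr2:14604306-14987908 and was the least abundant of the beta genes. It was at 0.729, 0.953, 1.11 and 0.777 FPKM in intact, 1.23, 0.963, 1.27 and 1.07 in dissociated and 0.384, 0.241, 0.415 and 0.223 in sorted replicates 1 to 4. All 4 sorted samples lay below every other sample. Their mean of 0.316 ± 0.0977 FPKM (SD, n = 4) rested on about 12.8 to 28.3 estimated fragments per sample, against 66.4 to 83.8 in dissociated samples, where the mean was 1.13 ± 0.142. The mean over these 8 samples was under 1 FPKM, so that the gene was not among those tested. An exact two-sided permutation test of the single difference (4 against 4) gave p = 0.0286, the smallest it can give. Any gene without overlap gets this value, so it adds nothing to the separation. Of genes tested, 27.8% had every sorted sample below every dissociated sample and 18.4% every one above. A limma fit of 17657 genes without the filter gave a log2-fold change of -1.59 (adjusted p = 7.7e-04 after Benjamini-Hochberg). Its exons share 253 bases with Gm10849 on the opposite strand.

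Counted together, 6 of the 8 genes were tested in sorted against dissociated samples. By adjusted p under 0.05, 4 were higher and 1 was lower, where 18.8% and 27.7% of all 12038 genes tested were higher and lower. By the study's criteria, which add a log2 ratio of means beyond 0.5 and more than 5 FPKM on average in the group where a gene is higher, 3 were higher (8.15% of all genes tested) and 1 was lower (12.5%). Over all 8 genes, every sorted sample was above every dissociated sample for 4 and below for 2, against 18.4% and 27.8% of genes tested. The median log2-fold change was 0.48 over the 6 tested genes and -0.04 over all genes tested. With so few genes, and with 2 kept from the test by their low level, these counts describe the 8 genes and no more.

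Markers of other cells moved between the same samples. Genes of large-diameter neurons fell in 8 of 9 (median log2-fold change -2.62, adjusted p under 0.05 by limma and Benjamini-Hochberg for each of the 8), satellite glia genes in 6 of 6 (median -6.07), Schwann cell genes in 6 of 7 (median -4.68) and fibroblast genes in 5 of 6 (median -5.92). The large-neuron list is not exclusive to those cells. It holds Ntrk2, whose truncated form the paper proposes to be mainly non-neuronal in DRG, and Pvalb, also a skeletal muscle gene. Nociceptor genes rose in 8 of 10 and fell in 1 (median 0.76), and general neuronal genes rose in 4 of 8 and fell in 2 (median 0.32). Mural cell genes fell in 4 of 5 tested and rose in 1, macrophage genes fell in 2 of 2 tested, and 0 of 6 endothelial genes passed the test (median -0.52). Red blood cell genes rose in 9 of 9 tested (median 4.36). The part of these cells in the changes of the calcium channel genes was not tested. With 28 rows of listed red blood cell, haemoglobin and muscle genes removed and the samples rescaled, the log2-fold changes were 0.61 for Cacna2d1, 0.69 for Cacna2d2, -0.65 for Cacna2d3 and 0.69 for Cacnb3, and all 4 still met the criteria. The paper's step was a different one. It dropped a much longer list of blood genes, all higher in sorted samples, after its differential test, and it describes no rescaling. Other transcripts of these cells stayed in here.

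**Figure D2:**
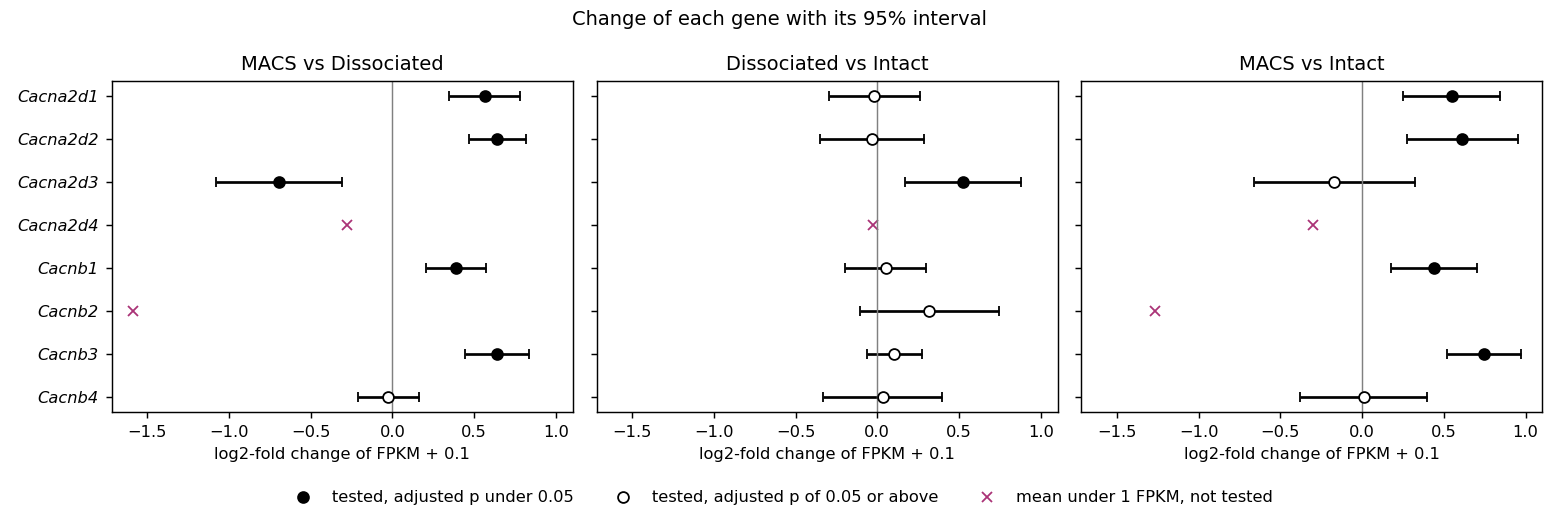
Log2-fold change of FPKM + 0.1 (horizontal axis) for each gene in the 3 comparisons, with bars for the 95% interval from limma, filled points for an adjusted p under 0.05 and crosses for genes with a mean under 1 FPKM, which were not tested. Cacna2d3 was higher in dissociated than in intact and lower in sorted than in dissociated samples, and the intervals of Cacnb4 hold 0 in all 3 comparisons.

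The comparison of dissociated with intact ganglia asked how the genes stood after dissociation, before any sorting. It shares the dissociated samples with the comparison above. Of 7 genes tested, 1 was past the threshold on adjusted p and met the criteria as higher, Cacna2d3, where 14.8% of all 12392 genes tested were higher by adjusted p and 4.29% by the criteria. None was lower, where 7.79% were by adjusted p and 2.76% by the criteria. The median change was 0.05 over the 7 genes and 0.01 over all genes tested. Cacna2d3 had a mean of 12.3 ± 2.59 FPKM in intact and 17.5 ± 1.41 in dissociated samples (SD, n = 4). It rose by 0.52 on the log2 scale (standard error 0.16, 95% interval 0.17 to 0.88, limma, Benjamini-Hochberg adjusted p = 0.041). The lowest dissociated sample, at 16.1 FPKM, lay above the highest intact sample, at 14.2, as was the case for 20.8% of all genes tested.

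This call was close to its limits. The log2 ratio of means was 0.50, and without intact replicate 1 the log2-fold change was 0.36, with a smaller Benjamini-Hochberg adjusted p of 0.0050 from limma, so that the gene no longer met the criterion of size. The adjusted p lay between 0.0526 and 0.105 when intact replicate 3 or 4 or any single dissociated sample was left out. In the same samples, genes of large-diameter neurons rose in 6 of 9 (median 0.62), general neuronal genes in 4 of 8 (median 0.31), satellite glia genes in 3 of 6 (median 0.35) and endothelial genes in 6 of 6 (median 1.07). Nociceptor genes rose in 3 of 10 and fell in 1 (median 0.07), and mural cell genes rose in 2 of 5 tested and fell in 1. Fibroblast genes fell in 6 of 6 (median -1.10), macrophage genes in 4 of 6 (median -1.14) and skeletal muscle genes, high in intact replicate 1, in 8 of 10 tested (median -5.11). Of 7 Schwann cell genes and 5 red blood cell genes tested, 0 passed (medians -0.24 and -0.75). Their part in the result was not tested.

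The other 6 tested genes missed the threshold between dissociated and intact samples. The 95% intervals of their log2-fold changes were -0.29 to 0.26 for Cacna2d1, -0.35 to 0.29 for Cacna2d2, -0.20 to 0.30 for Cacnb1, -0.10 to 0.74 for Cacnb2, -0.06 to 0.28 for Cacnb3 and -0.33 to 0.40 for Cacnb4. For 7 of the 8 genes the samples of the groups overlapped. Intact replicate 1 lay below the other 3 intact samples for 6 of the 8 genes. It was at 0.607 of their mean for Cacnb4, 0.625 for Cacna2d3, 0.653 for Cacna2d2 and 0.729 for Cacna2d1. For Cacnb1 the order was turned, and intact replicate 1 held 17.3 FPKM against 12.7 to 14.8 in the others. Without it the intact means were 39.3 ± 1.56 for Cacna2d1, 7.98 ± 0.413 for Cacna2d2, 13.6 ± 0.548 for Cacna2d3, 13.5 ± 1.20 for Cacnb1, 84.6 ± 2.56 for Cacnb3 and 23.9 ± 1.68 for Cacnb4 (FPKM, SD, n = 3). The part of the muscle RNA of that sample in these values was not tested.

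The comparison of sorted with intact samples shared samples with both comparisons above. Of 6 genes tested, 4 were higher by adjusted p, where 14.1% of all 12234 genes tested were, and 3 met the criteria, where 7.54% did. For 4 genes every sorted sample was above every intact sample, as for 15.6% of genes tested. Cacna2d1 was higher by 0.55 on the log2 scale (standard error 0.13, adjusted p = 0.010), Cacna2d2 by 0.61 (0.15, 0.012) and Cacnb3 by 0.75 (0.10, 3.9e-04), all by limma and Benjamini-Hochberg. Cacnb1, at 0.44 (limma, Benjamini-Hochberg adjusted p = 0.017), was under the criterion of size, and its adjusted p was 0.0538 without intact replicate 2 and 0.0561 without intact replicate 3. Without intact replicate 1 the log2 ratio of means was 0.44 for Cacna2d1 and 0.47 for Cacna2d2, so that both lost the criterion of size while still past the threshold on adjusted p. In that setting Cacnb1, at a ratio of 0.53, met the criteria beside Cacnb3. Without sorted replicate 1 the ratio for Cacna2d1 was 0.49, and Cacna2d2 and Cacnb3 met the criteria. Cacna2d3 had a change of -0.17 with a 95% interval from -0.66 to 0.32, and Cacnb4 one of 0.01 with an interval from -0.38 to 0.40. Cacnb2 was lower in all 4 sorted samples than in all 4 intact samples, as were 21.9% of genes tested, and was again under the level for a test (log2-fold change -1.27 and adjusted p = 0.0055 in a limma fit of 17980 genes after Benjamini-Hochberg). Under quantile normalization this log2-fold change of Cacnb2 was only -0.33.

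The share of each gene within its class was described from the same FPKM values, without a test. Among the beta genes, intact and dissociated shares overlapped for every gene. Cacna2d1 made up most of the summed alpha2delta FPKM, with 65.3% ± 1.55 in intact, 59.4% ± 3.70 in dissociated and 70.6% ± 3.84 in sorted samples (SD, n = 4). Cacna2d3 made up 21.8% ± 1.31, 28.9% ± 3.05 and 14.7% ± 4.06, and its shares did not overlap between groups. Its highest intact share, 23.1%, lay below its lowest dissociated share, 26.6%, and its highest sorted share, 18.6%, lay below every intact share. Cacna2d2 accounted for 12.9%, 11.6% and 14.7%. The sum itself was 56.2 ± 9.41 FPKM in intact, 60.5 ± 2.13 in dissociated and 75.3 ± 4.27 in sorted samples.

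The ratio of Cacna2d1 to Cacna2d3 was 3.01 ± 0.258 in intact, 2.08 ± 0.319 in dissociated and 5.22 ± 2.11 in sorted samples (SD, n = 4). Its range of 3.57 to 8.28 in sorted samples lay above those of 1.62 to 2.31 in dissociated and 2.78 to 3.37 in intact samples, and its highest value was that of sorted replicate 1. The ratio of Cacna2d1 to Cacna2d2 was 5.06, 5.13 and 4.82 and overlapped between all groups. A ratio of a pair of genes in one sample does not depend on the scaling of that sample.

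Cacnb3 supplied 69.1% ± 1.13 of the beta FPKM in intact, 70.2% ± 1.34 in dissociated and 77.1% ± 1.73 in sorted samples. Its lowest share in sorted samples, 75.5%, was above its highest share elsewhere, 71.8%. The share of Cacnb4 was 17.9% ± 3.31, 17.2% ± 1.54 and 11.9% ± 1.73, and that of Cacnb1 was 12.2% ± 2.57, 11.8% ± 0.487 and 10.8% ± 0.370. The ratio of Cacnb3 to Cacnb4 was 3.68 to 4.79 in dissociated and 5.44 to 8.21 in sorted samples, which did not overlap. Summed beta expression was 119 ± 7.45 FPKM in intact, 126 ± 6.22 in dissociated and 180 ± 15.4 in sorted samples.

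**Figure D3:**
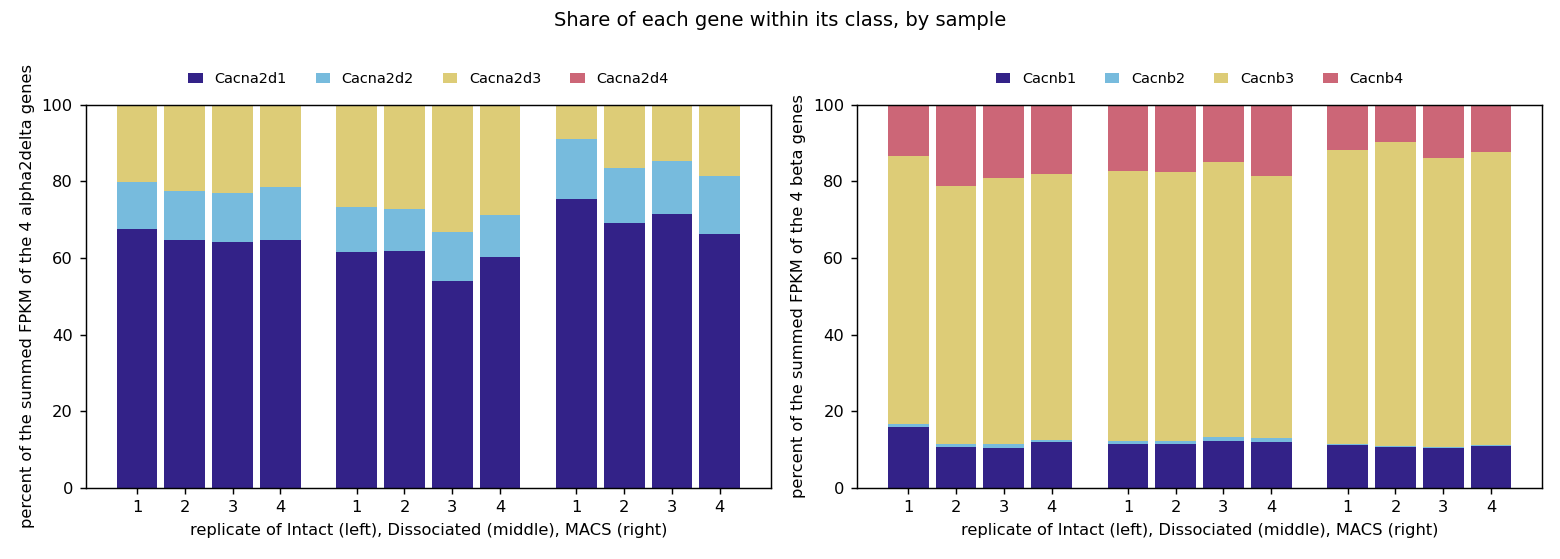
Percent of the summed FPKM of the 4 alpha2delta genes (left) and of the 4 beta genes (right) taken by each gene, with 1 stacked bar per sample and the replicate number below it. Cacna2d3 took 26.6% to 33.3% in dissociated and 9.10% to 18.6% in sorted samples, and Cacnb3 took 68.5% to 71.8% and 75.5% to 79.5%.

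Other genes of the same channels were counted by their roles. For these counts, 18.8% of all genes tested were higher and 27.7% lower by adjusted p in sorted against dissociated samples. In dissociated against intact samples 14.8% were higher and 7.79% lower by adjusted p, and 4.29% and 2.76% by the criteria. The lists are short, and their counts were not tested against these shares. Of 10 genes for alpha1 subunits, 7 were tested in sorted against dissociated samples, and 3 were higher and 0 lower by adjusted p (median log2-fold change 0.31). Cacna1i, a T-type pore, was higher by 1.95 (adjusted p = 2.2e-04) and Cacna1b, the N-type pore, by 0.52 (adjusted p = 0.0028, both by limma and Benjamini-Hochberg). The lowest changes were those of Cacna1e, the R-type pore, at -0.39 and of Cacna1a, the P/Q-type pore, at -0.23, and neither passed the test (limma, Benjamini-Hochberg adjusted p = 0.224 and 0.0593). Between dissociated and intact samples 0 of the 7 genes passed.

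Of 8 genes of the gamma family, whose members include calcium channel subunits and regulators of AMPA receptors, 5 were tested in sorted against dissociated samples, and 0 rose and 2 fell. Cacng4 had a mean of 3.30 FPKM in dissociated and 0.0427 in sorted samples (log2-fold change -4.64, limma, Benjamini-Hochberg adjusted p = 6.1e-06), with 2 sorted samples listed at 0. Cacng5 fell from 7.31 to 2.11 FPKM (-1.75, limma, Benjamini-Hochberg adjusted p = 1.9e-05). The highest changes, of Cacng2 at -0.12 and Cacng7 at -0.24, did not pass. Between dissociated and intact samples 4 of the 5 tested were higher, and Cacng2, higher by 0.96, and Cacng5, by 1.07, met the criteria.

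**Figure D4:**
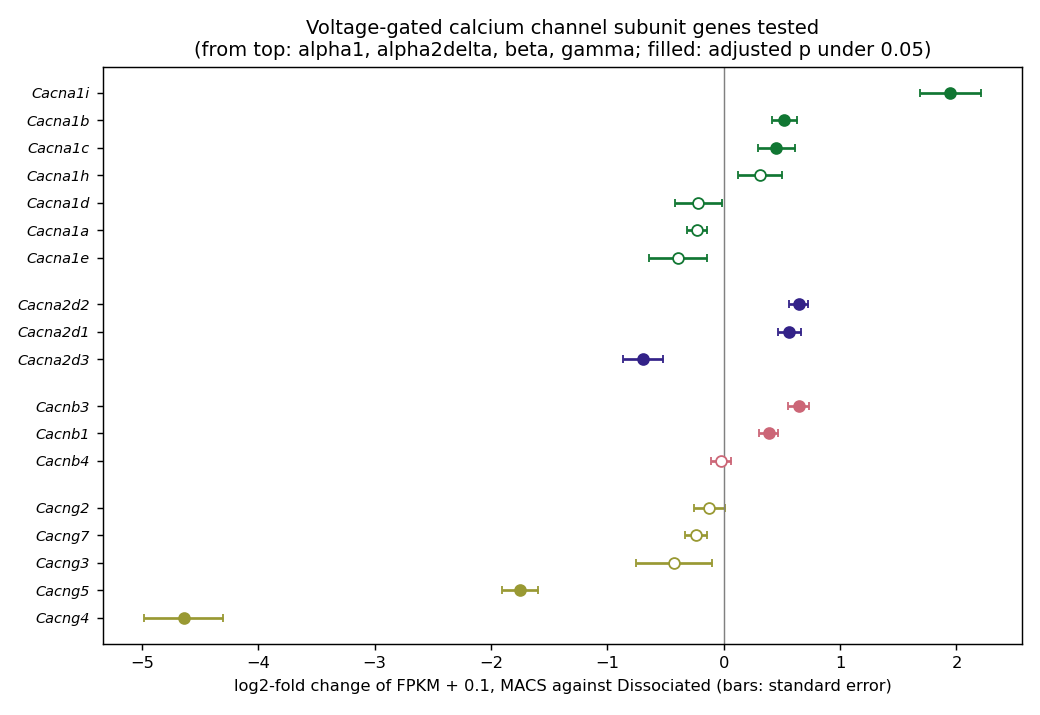
Log2-fold change of FPKM + 0.1 between sorted and dissociated samples (horizontal axis, bars for the standard error) for every tested alpha1, alpha2delta, beta and gamma gene, filled where the adjusted p was under 0.05. Cacna1i was highest at 1.95 and Cacng4 lowest at -4.64, and Cacna2d3 was the one tested alpha2delta or beta gene that fell.

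Among 10 genes for proteins known to interact with alpha2delta subunits, or related to them, 9 were tested in sorted against dissociated samples, and 0 rose and 5 fell. Thbs2 at -3.55 and Thbs1 at -1.95, which encode thrombospondins, secreted proteins that bind alpha2delta-1, had the lowest changes (limma, Benjamini-Hochberg adjusted p = 1.2e-04 and 0.0029). The highest, Cachd1 at 0.15, did not pass. Between dissociated and intact samples Nrxn2, a presynaptic adhesion molecule, was higher by 0.65 and Thbs1 fell by 1.26 on the log2 scale, both meeting the criteria.

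Of 12 genes for proteins that bind or act with beta subunits, 9 rows were tested, and 3 rose and 3 fell in sorted against dissociated samples. Stac, an adaptor of calcium channels, was higher by 0.95 (adjusted p = 4.7e-05) and Rims2, a protein of the presynaptic active zone, by 0.62 (adjusted p = 0.0044, both by limma and Benjamini-Hochberg). Rimbp2 was at -1.53 and Bzrap1 at -1.18, both genes for RIM-binding proteins (limma, Benjamini-Hochberg adjusted p = 4.4e-04 and 0.0026). Rem2, a small GTPase that binds beta subunits, fell by 1.10 on the log2 scale in sorted against dissociated samples (limma, Benjamini-Hochberg adjusted p = 3.4e-05) and was the 1 gene of this list that met the criteria as lower. It had met them as higher in dissociated than in intact samples, with a change of 0.74. Among calmodulin genes, Calm3 fell by 0.55 on the log2 scale in sorted samples and met the criteria, while Calm2 at -0.03 did not pass.

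The genes whose pattern over the 12 samples was most like that of each calcium channel gene were found by the root-mean-square difference of mean-centred log2(FPKM + 0.1), among the 12283 genes that averaged 1 FPKM or more. For Cacna2d1 they were Rabgap1l (0.067), Osbpl8 (0.068) and Mbnl2 (0.074), and for Cacna2d2 Plekha6 (0.082), Rbms1 (0.084) and Dock11 (0.086). For Cacna2d3 they were Mcam (0.12), Abcg4 (0.15) and Ppm1e (0.15), and no gene came within 0.1. For Cacnb1 they were Dctn2 (0.058), Hspb8 (0.063) and Ubb (0.075), for Cacnb3 Ankrd13b (0.051), H13 (0.065) and Lrrc75b (0.070), and for Cacnb4 Myo9a (0.051), Usp34 (0.061) and 9930021J03Rik (0.065). Within 0.1 there were 8 genes for Cacna2d1, 4 for Cacna2d2, 23 each for Cacnb1 and Cacnb3 and 39 for Cacnb4. These counts use 1 fixed distance, while the spread of a gene around its own mean ranged from 0.20 for Cacnb4 to 0.40 for Cacna2d3, so that the counts are not comparable between genes.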

How the data were processed

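The authors aligned 100-base reads to mm10 with TopHat2, merged lanes with SAMtools and estimated 1 FPKM value per gene and sample with Cufflinks 2.1.1. These deposited FPKM values were used unchanged, and all 12 samples entered. The groups and replicate numbers were taken from the labels, which describe the samples of a group as biological replicates.

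Groups were compared by limma 3.58.1 in R 4.3.3 on log2(FPKM + 0.1), with a trend in the prior variance, two-sided tests and Benjamini-Hochberg adjustment over all genes averaging 1 FPKM or more in the 8 samples compared. The pseudocount makes changes of low genes look smaller. A gene met the criteria at an adjusted p under 0.05, a log2 ratio of mean FPKM beyond 0.5 and more than 5 FPKM on average in the group where it is higher. The study named CuffDiff, for which the aligned reads would be needed, and limma took its place. Single differences were compared by exact two-sided permutation tests. FPKM gives no counts, so no counting intervals were drawn, and depth was only estimated. Multi-mapped reads (up to 2 places) were kept by the authors.

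The procedure was tested on 10 simulated data sets per comparison, each with 200 genes changed by 1 on the log2 scale. The changed genes were drawn from those averaging 10 FPKM or more, and noise was drawn for each gene on its own. On average 94.4%, 88.9% and 82.1% of those tested were recovered in sorted against dissociated, dissociated against intact and sorted against intact samples. On average 2.13%, 2.41% and 3.11% of the calls were unchanged genes, with 5.14% as the highest of any single data set. The tested alpha2delta and beta genes all changed by less than 1. Recovery of smaller changes, of lower genes and under shifts shared by a whole sample was not measured.

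The 8 genes and all gene lists were chosen with earlier results of these data known. In each list of channel genes, those with the 2 highest and the 2 lowest changes in sorted against dissociated samples were named, with any meeting the criteria in dissociated against intact samples, and for each calcium channel gene the 3 most alike. Other genes were named after their values were seen. A few genes that this rule would name are not reported here. Start and end positions count from 1, and overlaps of exons were taken from the GENCODE annotation.

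Replicate numbers did not pair the samples and were not used as a block. Alternatives covered the pseudocount, the filter, the samples fitted, the replicate block, the trend, the scaling and the samples left out.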

Additional observations from a re-analysis of the deposited data

Results flagged for a closer look

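In 4 of the 24 combinations of gene and group, 1 sample lay far from the other 3 of its group relative to the group's range, where chance gives about 1 in 20. For Cacna2d4 in sorted samples, 1 of the 4, this followed from 3 samples at 0 and says nothing about the sample that had a value. Dissociated replicate 3 was the lowest of its group for Cacna2d1, at 31.0 FPKM against 37.1 to 37.8 in the others. It was also the highest of its group for Cacnb1, at 16.6 FPKM against 14.2 to 14.4. Sorted replicate 1 was the highest of its group for Cacna2d2, at 12.2 FPKM against 10.5 to 10.7, and sorted replicate 3 alone had a value above 0 for Cacna2d4, at 0.0202 FPKM. With these samples left out in turn, the changes of Cacna2d1, Cacna2d2 and Cacnb1 between sorted and dissociated samples kept their direction and stayed past the threshold.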

How the results depend on the processing

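In sorted against dissociated samples, 3 of the 8 genes met the criteria as higher and 1 as lower under every alternative run. Some of these runs came close to the size limit of 0.5. The log2 ratio of means for Cacna2d1 was 0.503 without dissociated replicate 3 and 0.513 without sorted replicate 1. For Cacna2d3 it was -0.509 without sorted replicate 1. Over all 3 comparisons, 424 of 448 alternative log2-fold changes of the 8 genes stayed on their side of the threshold, with the same direction where past it, or, for genes not tested, moved by less than 1 SD. None reversed a call. In dissociated against intact samples, the single gene higher, Cacna2d3, became 0 without the filter on low FPKM, with all 12 samples in one fit, under median-ratio size factors, under quantile normalization, with red blood cell, haemoglobin and muscle genes removed, and with dissociated replicates 1 and 2 averaged, and the count ranged from 0 to 1 when single samples were left out. Its Benjamini-Hochberg adjusted p from limma reached 0.113 at most, with those genes removed. Removing them also took the genes higher in dissociated than in intact samples from 531 to 345, and leaving out single samples took the genes lower from 342 to between 187 and 334, the lowest without dissociated replicate 4, with 203 without replicate 3 and 224 without replicate 1. The cause was not tested. Against intact samples, Cacna2d1, Cacna2d2 and Cacnb3 met the criteria as higher in sorted samples, Cacna2d2 and Cacnb3 under quantile normalization and without sorted replicate 1, and Cacnb1 and Cacnb3 without intact replicate 1. Quantile normalization shifted the median of all genes to 0.10 in sorted against dissociated samples and to 0.13 against intact samples, and turned the split of 981 genes higher and 1505 lower into 1382 and 1285. With that shift still in them, the changes of the called genes were 0.59 for Cacna2d1, 0.74 for Cacna2d2, -0.60 for Cacna2d3 and 0.63 for Cacnb3. The log2-fold change of Cacnb2 between sorted and dissociated samples, which was not tested, was -0.70 with a pseudocount of 1 and -0.90 under quantile normalization. Between sorted and intact samples it was -1.27 with the main settings and -0.33 under quantile normalization, so that its size depended on the scaling. Samples of the same replicate number did not deviate together (correlations from -0.157 to 0.0713). With the replicate number as a block, 991 genes were higher and 1516 lower in sorted against dissociated samples and the same numbers of the 8 genes, 3 and 1, met the criteria. FPKM values hide the counts behind low genes, so that Cacna2d4 and, in part, Cacnb2 are limited by depth.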

Other observations

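Some calcium channel subunit genes known from skeletal muscle, named after their values were seen, had their highest values in intact replicate 1, the sample with 3475 FPKM of summed muscle genes. Cacna1s, the pore subunit of the skeletal muscle channel, was at 5.27 FPKM there and at 0.212 or less in the other 11 samples. Cacng1, the gamma subunit of that channel, was at 3.37 FPKM there and at 0.105 or less elsewhere, and Cacng6 at 1.01 against 0.181 or less. Not all subunit genes went this way. Cacnb1 was at 17.3 FPKM in intact replicate 1 against 12.7 to 14.8 in the other intact samples. Its highest values, however, were those of the sorted samples, at 18.3 to 21.5 FPKM. Cacna2d1 was lower in intact replicate 1, at 28.6 FPKM against 37.7 to 40.8 in the other intact samples. Both Lrtm1, which lies within Cacna2d3, and Lrtm2, which lies within Cacna2d4, were low. Lrtm1 had a mean of 0.0562 FPKM in intact samples and was listed at 0 in the other two groups, and Lrtm2 had means of 0.414, 0.237 and 0.0548 FPKM in intact, dissociated and sorted samples.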
